A study of Mus musculus with 4 samples.

Results

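The germline genes described here are 10 genes known for silencing by promoter DNA methylation in somatic cells: Sycp3, Sycp1, Dazl, Ddx4, Mael, Asz1, Dpep3, Brdt, Stk31 and Tdrd1. They were found by symbol in the deposited expression table of 17335 genes. Of the 10 genes, 9 had a row. The expression of Mael, a factor that protects male germ cells from transposons, was not analysed here. RNA came from gonadal white adipose tissue (gWAT) of female mice kept on high-fat diet (HFD) for 18 weeks. AD1KO mice carry floxed Dnmt1 alleles and a Cre recombinase driven by the adiponectin promoter, which is active in adipocytes. The fl/fl mice are littermates with the same floxed alleles and no Cre. RNA of 4 animals was pooled in each group and sequenced as 1 library, so that no comparison below has a replicate check or a p-value. The pools hold whole tissue, in which other cell types keep Dnmt1, and fewer cells of a type cannot be told apart from less RNA per cell.

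DNMT1 is the maintenance methyltransferase that copies CpG methylation onto newly made DNA. Many genes of the germ line have CpG-rich promoters that are methylated around implantation and remain silent in somatic tissues. The products of these genes build the chromosome axis and synaptonemal complex of meiosis, make and use piRNAs against transposons in germ granules, or package chromatin in developing sperm. Loss of DNMT1 in cultured somatic cells is known to activate several of them. A second layer of repression acts at some of these promoters, through a Polycomb complex that holds the factors E2F6, MGA and MAX.

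The promoters are shown first because methylation of these sequences is what the genes are known for, while methylation itself was not analysed here. In windows of 300 bases from RefSeq (GRCm38.p6), 250 before and 50 after the start, the 10 genes had 12 to 38 CpGs. Their median was 22, against 7 over all 27025 promoters of the table. The CpG observed over expected ratio, which corrects for base composition, ran from 0.462 in Dpep3 to 0.978 in Ddx4, with a median of 0.782 against 0.389. The median G and C share was 62.5% for the 10 genes and 52.7% for all promoters. Dpep3 had the fewest CpGs of the 10, and still more than 59.9% of all promoters. Letters of 2 motifs were searched on both strands. TCCCGC, an E2F6-type motif whose other strand reads GCGGGA, was in the windows of 4 of the 10 genes and in 20.0% of all promoters. CACGTG, the E-box read by MAX and other factors and identical on both strands, was in 7 of the 10 and in 7.24% of all. Both motifs were found in Sycp3, Sycp1, Ddx4 and Mael, and in 2.05% of all promoters. Sycp3 held 2 copies of CACGTG, and 0.625% of all promoters held 2 or more. Dazl, Asz1 and Dpep3 held neither. Each motif holds a CpG, and the shares are over all promoters, which were not matched to the 10 genes for CpG number. A match is a description of letters and not evidence that a factor binds there.

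**Figure D1:**
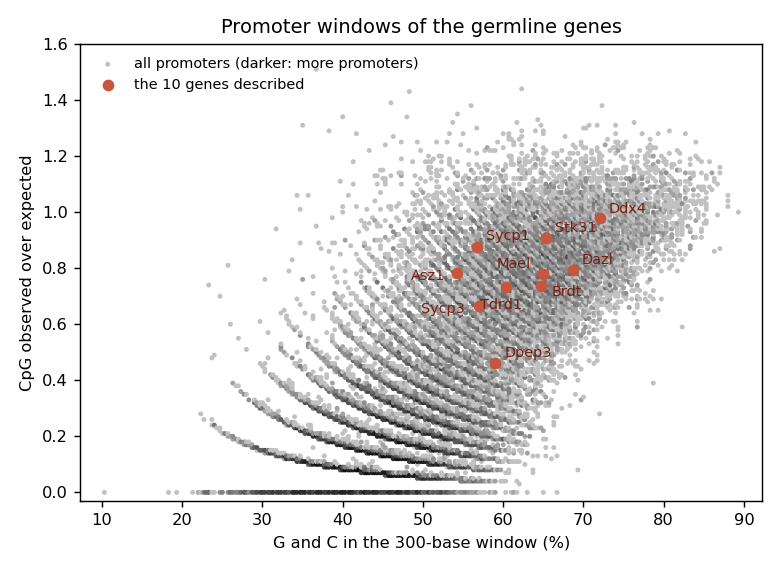
Share of G and C (x axis, %) and CpG observed over expected ratio (y axis) in the 300-base promoter window of each RefSeq gene, with darker grey where more promoters share a value and the 10 germline genes in red (1 promoter lies above the axis limit of 1.6). Dpep3 sits lowest at 0.462 and Ddx4 highest at 0.978, against a median of 0.389 over all promoters.

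The stretches upstream of the start are given for the 4 genes whose values could be compared between the libraries. They are RefSeq promoter sequences found by exact match in mm9 (NCBIM37) and end before the gene as GENCODE places it. Capitals mark the matches to TCCCGC or GCGGGA and to CACGTG.
Sycp3, chr10:87922082-87922313, plus strand: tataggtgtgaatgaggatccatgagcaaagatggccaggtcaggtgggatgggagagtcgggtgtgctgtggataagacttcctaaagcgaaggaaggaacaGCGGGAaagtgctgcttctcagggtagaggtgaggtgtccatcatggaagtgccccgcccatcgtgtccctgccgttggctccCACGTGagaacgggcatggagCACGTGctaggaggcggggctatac
Ddx4, chr13:113442519-113442768, minus strand: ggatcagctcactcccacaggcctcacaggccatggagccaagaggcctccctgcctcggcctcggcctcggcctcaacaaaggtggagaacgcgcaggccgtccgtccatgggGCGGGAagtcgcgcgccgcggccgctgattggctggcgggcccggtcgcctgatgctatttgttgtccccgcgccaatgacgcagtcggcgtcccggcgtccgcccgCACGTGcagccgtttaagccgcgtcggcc
Brdt, chr5:107759963-107760177, plus strand: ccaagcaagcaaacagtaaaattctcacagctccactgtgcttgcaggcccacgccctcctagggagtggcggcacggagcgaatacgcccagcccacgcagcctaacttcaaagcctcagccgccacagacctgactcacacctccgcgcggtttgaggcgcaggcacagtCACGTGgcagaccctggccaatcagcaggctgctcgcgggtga
Dpep3, chr8:108503320-108503569, minus strand: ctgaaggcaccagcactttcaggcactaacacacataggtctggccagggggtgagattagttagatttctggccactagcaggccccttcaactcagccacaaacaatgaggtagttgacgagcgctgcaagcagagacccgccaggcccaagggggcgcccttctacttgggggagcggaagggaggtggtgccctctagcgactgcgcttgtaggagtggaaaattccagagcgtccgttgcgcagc
The Sycp3 stretch of 232 bases carries GCGGGA once and CACGTG in 2 places. Ddx4 carries each once in 250 bases, Brdt carries CACGTG once in 215 bases, and Dpep3 has no capitals.

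The targeted gene was examined before the germline genes. Dnmt1 was at 6.99 FPKM in fl/fl and 3.33 FPKM in AD1KO, where FPKM is a fragment count corrected for the size of the library and the length of the transcript. This is a log2 ratio of -1.07, with AD1KO set over fl/fl and 0.01 FPKM added to every value beforehand, as for all genes. The 95% interval from -1.27 to -0.87 is an exact Clopper-Pearson interval on an estimated 636 and 299 reads and covers counting error only. Depth was estimated from the values at 17550000 reads in fl/fl and 17316000 in AD1KO. The tissue label was borne out by the 10 adipocyte markers, among which Fabp4, a fatty acid carrier, was at 11151.42 and 15919.51 FPKM. All 10 of these markers had higher FPKM in AD1KO, with a median log2 ratio of 0.56. All 9 macrophage markers with a row and all 10 T and NK cell markers had lower FPKM, with medians of -0.98 and -1.83. All 10 proliferation markers were lower as well, with a median of -1.03, close to the -1.07 of Dnmt1, which dividing cells also express. These markers move with the genotype, and their part in the germline values and in that of Dnmt1 was not tested.

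Of the 10 germline genes, Sycp3 was the only 1 above 1 FPKM in either library. Sycp3 encodes a lateral element protein of the synaptonemal complex, which holds paired chromosomes together in meiosis. The fl/fl library had 52.08 FPKM of Sycp3 and the AD1KO library 120.23 FPKM. Sycp3 ranked 1632 of the 17335 genes by FPKM in fl/fl and 725 in AD1KO. The log2 ratio was 1.21 (95% counting interval 1.12 to 1.29), or 2.31-fold, on about 1557 and 3545 reads. Among the 1850 tested genes that reached 50 FPKM in 1 library, 217 (11.7%) had a log2 ratio of at least 0.5, and 18 (0.97%), Sycp3 included, had 1 at least as large as that of Sycp3.

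The Sycp3 locus overlaps another gene. In the GENCODE annotation of mm9, Sycp3 lies on the plus strand of chromosome 10 from 87922314 to 87935981. Chpt1, which encodes a cholinephosphotransferase of phosphatidylcholine synthesis, runs across it on the minus strand. Exons of Chpt1 cover 660 of the 1264 exon bases of Sycp3 (52.2%) when all transcripts of both genes are merged. Between the first listed transcript of each gene, 331 of 1139 bases (29.1%) are shared, at the 3′ ends. Chpt1 was at 269.98 FPKM in fl/fl and 362.39 FPKM in AD1KO, with a log2 ratio of 0.42 (95% counting interval 0.39 to 0.46). Reads given to Sycp3 equalled 12.4% of those given to Chpt1 in fl/fl and 21.3% in AD1KO, so the 2 genes did not change by the same factor. Whether reads were counted by strand is not given in the sources used here, and without strand the reads of the shared bases cannot be assigned to either gene. The table lists Sycp3 with a length of 1817 bases, longer than the 1264 merged exon bases in GENCODE, so the transcript model behind its FPKM was another one. Gnptab, the gene upstream of Sycp3, was at 13.81 and 14.96 FPKM, with a log2 ratio of 0.12. None of the other 8 germline genes with a row shares an exon base with another gene in this annotation. None of those 8 has a coding transcript match of at least 100 bases at 90% identity in another gene.

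**Figure D2:**
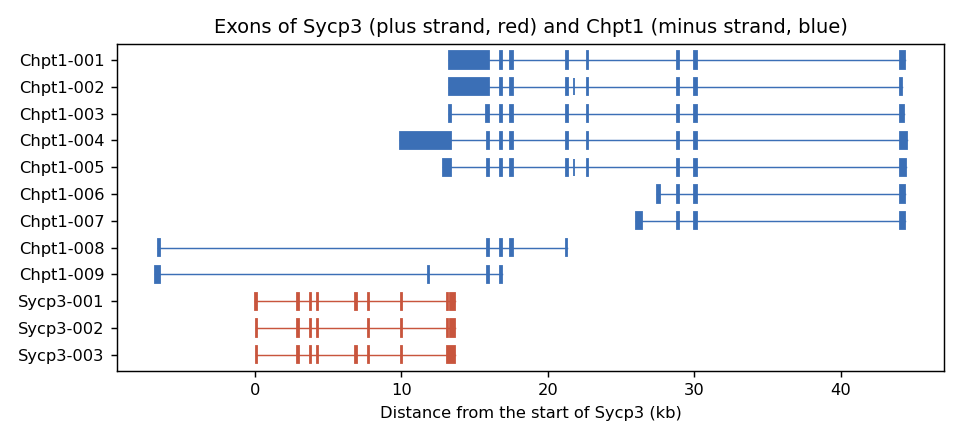
Exons (boxes) and introns (lines) of the GENCODE transcripts of Sycp3 in red and Chpt1 in blue, by distance from the start of Sycp3 (x axis, kb). The last exons of the Sycp3 transcripts lie over Chpt1 exons, and 660 of 1264 merged Sycp3 exon bases are shared.

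The level of Sycp3 also has to be read beside the adipocyte markers, all of which were higher in AD1KO. Their largest log2 ratio was that of Cidec, a lipid droplet protein, at 0.96, below the 1.21 of Sycp3. When both libraries were scaled to the median ratio of the adipocyte markers, the log2 ratio of Sycp3 was 0.65. Whether Sycp3 reads come from adipocytes was not tested.

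The other 2 genes of sperm and testis with more than a few reads had lower values in AD1KO. Dpep3 encodes a membrane dipeptidase of the testis. Its level was 0.79 FPKM in fl/fl and 0.29 FPKM in AD1KO, which some 22 and 8 reads support. Its log2 ratio was -1.42 (95% counting interval -2.82 to -0.22). Brdt encodes a bromodomain protein that reads acetylated histones in spermatids. The libraries had 0.86 and 0.66 FPKM of it, from some 69 and 53 reads, and its log2 ratio of -0.38 had a counting interval that holds 0 (-0.91 to 0.18).

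The genes of germ granules, the piRNA pathway and RNA binding were at the limit of detection in both libraries. Ddx4, the RNA helicase VASA that marks germ cells, was at 0.06 FPKM in fl/fl and 0.15 FPKM in AD1KO. About 3 and 7 reads stand behind these values, and the interval around its log2 ratio of 1.19 ran from -0.89 to 3.83. Stk31, a kinase-like Tudor protein of germ cells, was at 0.04 and 0.05 FPKM. Dazl, an RNA-binding protein that licenses germ cells for gamete formation, was at 0.04 FPKM in fl/fl and 0.02 FPKM in AD1KO. Asz1, a mitochondrial factor of piRNA production, was listed at 0 in fl/fl and at 0.07 FPKM, about 2 reads, in AD1KO. Tdrd1, a Tudor scaffold of germ granules, was listed at 0 in both libraries. A value of 0 is written as 0.01 in the table, and in genes longer than 3913 bases, such as Tdrd1 with 4887, 1 read is written the same way. Sycp1, the transverse filament protein that links both lateral elements of the synaptonemal complex, was at 0.02 and 0.05 FPKM, about 1 and 3 reads. Sycp1 and Sycp3 act in the same structure, and their levels in AD1KO were 0.05 and 120.23 FPKM. For Sycp1, Dazl, Asz1, Stk31 and Tdrd1 both libraries were at or under 3 reads, which a count of 0 allows, and no fold is given.

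**Figure D3:**
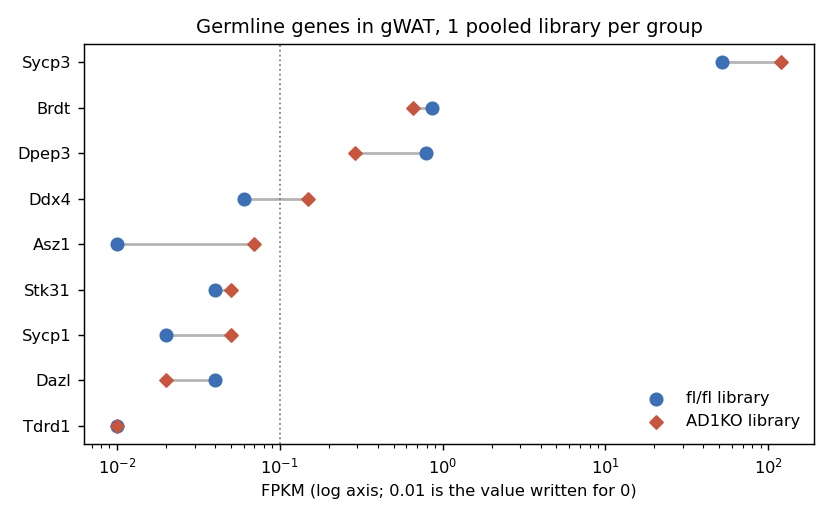
FPKM (x axis, log scale) of the 9 germline genes with a row, in the pooled fl/fl library (blue circles) and the pooled AD1KO library (red diamonds), with the 0.1 FPKM minimum as a dotted line. Sycp3 stands at 52.08 and 120.23 FPKM, and each other gene is below 1 FPKM in both libraries.

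Of the 9 genes with a row, 4 passed the minimum of 0.1 FPKM in 1 library, and 5 did not. A log2 ratio of at least 0.5 was reached by 2 of the 4, Sycp3 and Ddx4, beside 14.3% of the 15839 genes that passed the same minimum. Dpep3 was the only 1 of the 4 at or below -0.5, beside 19.1% of all genes. The whole counting interval was above 0 for Sycp3 and below 0 for Dpep3, which was so for 21.5% and 28.9% of all genes. The median log2 ratio of the 4 genes was 0.41, against -0.04 over all tested genes. With both libraries scaled to the adipocyte markers it was -0.15, against -0.60 over all tested genes, since this scaling shifts every ratio alike. With 1 FPKM added in place of 0.01, the median of the 4 genes was -0.02. Ddx4 passed the minimum only through the AD1KO library, in which its value is the higher one. The FPKM of the 9 genes summed to 53.89 in fl/fl and 121.52 in AD1KO. Sycp3 made up 96.6% and 98.9% of these sums, and without it they were 1.81 and 1.29. The 6 genes other than Sycp3, Brdt and Dpep3 together had 8 estimated reads in fl/fl and 16 in AD1KO. The log2 ratio of these sums was 1.02, with an interval from -0.29 to 2.45. This interval holds 0 and also changes of several fold upward. Fewer than 10 reads over both libraries were found for 5 of the 9 genes, and for 13.2% of the genes of the table.

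**Figure D4:**
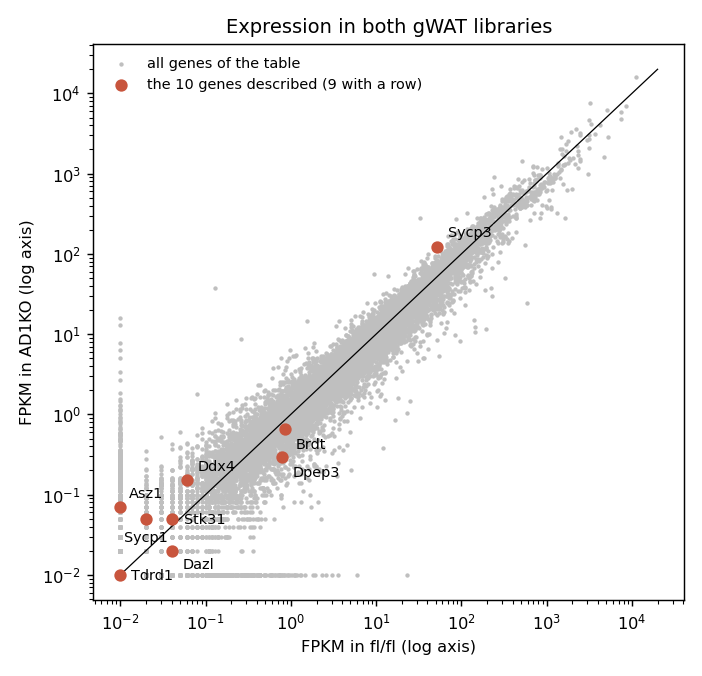
FPKM in fl/fl (x axis, log scale) against AD1KO (y axis, log scale) for all genes of the table in grey and the germline genes in red, with a line of equal values. Sycp3 lies above the line among abundant genes, Brdt and Dpep3 lie below it under 1 FPKM, and 6 genes lie at or under 0.15 FPKM.

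Other genes of the same programs were counted from lists chosen by role, which leave out the 10 genes. Of 70 such symbols, 44 had a row and 30 passed the minimum. A log2 ratio of at least 0.5 was found for 10 of the 30 and of -0.5 or less for 12, beside 14.3% and 19.1% of all tested genes. Of the 10, 4 passed the minimum only through AD1KO, where they are higher, and of the 12, 3 passed it only through fl/fl, so the counts partly follow from the minimum. With genes listed at 0 in 1 library set to the 3 reads that a count of 0 allows, and 3 genes with no more than 3 reads in both libraries left out, these counts were 9 and 10 of 27. The whole counting interval was above 0 for 1 of the 30 and below 0 for 5. The gene above was Ybx2, a germ cell mRNA-binding protein, at 1.88 and 3.36 FPKM. Its log2 ratio was 0.83 (95% counting interval 0.42 to 1.27). The 5 genes below were Dppa3, Psmc3ip, Syce2, Spo11 and Tdrkh, of which Syce2 and Tdrkh were named after their values were seen.

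Among genes of the chromosome axis and synaptonemal complex, 3 of 5 tested genes were past 0.5 and 2 past -0.5. Over all tested genes, 14.3% and 19.1% were past these cuts. Hormad2, an axis protein, was at 0.09 and 0.19 FPKM, and Syce1, of the central element, at 0.50 and 0.30 FPKM. Both intervals held 0. Syce2, also of the central element, was at 5.01 FPKM in fl/fl and 3.06 FPKM in AD1KO, with a log2 ratio of -0.71 (95% counting interval -1.31 to -0.10). None of these 5 genes had an interval above 0.

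Among genes of meiotic recombination, 3 of 9 were past 0.5 and 3 past -0.5, beside 14.3% and 19.1% of all tested genes. Psmc3ip, a partner of the strand exchange recombinases, was at 4.95 and 1.91 FPKM, with a log2 ratio of -1.37 (95% counting interval -2.04 to -0.74). Spo11, which makes the DNA breaks that start recombination, had about 6 reads in fl/fl and was listed at 0 in AD1KO. Dmc1, the meiotic recombinase, had an estimated 2 reads in fl/fl against 7 in AD1KO, and its interval held 0.

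In the piRNA and germ granule list, 1 of 8 was past 0.5 and 3 past -0.5, beside 14.3% and 19.1% of all tested genes. Pld6, a mitochondrial nuclease of piRNA production, was at 0.34 and 0.62 FPKM. Mybl1, a transcription factor for piRNA precursors, was at 0.36 and 0.19 FPKM. The intervals of both held 0. Tdrkh, a Tudor protein of piRNA trimming, was at 8.24 and 6.83 FPKM, with a log2 ratio of -0.27 (95% counting interval -0.54 to -0.004).

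In the germ cell fate list, 1 of 4 was past 0.5 and 3 past -0.5, beside 14.3% and 19.1% of all tested genes. Dppa3, a maternal factor that guards methylation in the early embryo, was at 3.51 and 1.28 FPKM, with a log2 ratio of -1.45 (95% counting interval -2.23 to -0.73). The 1 gene past 0.5 was Tex19, a repressor of transposons in germ cells. Nanos3, which maintains primordial germ cells, was among the 3 past -0.5. Tex19 and Nanos3 had at most 3 reads in either library, which a count of 0 allows. Of the late testis genes, 2 of 4 were past 0.5 and 1 past -0.5, beside 14.3% and 19.1% of all tested genes. The 1 past -0.5 was Tnp2, a transition protein of sperm chromatin, with about 2 reads in fl/fl and a listed 0 in AD1KO.

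**Figure D5:**
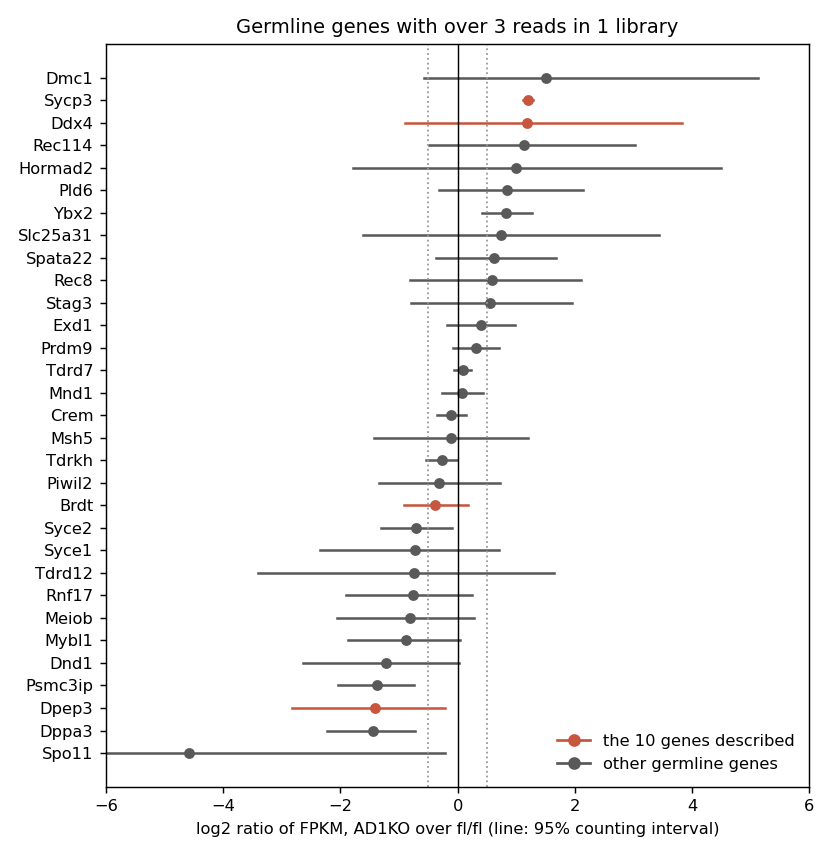
Log2 ratio of AD1KO over fl/fl (x axis) with its 95% counting interval for germline genes that passed 0.1 FPKM and had over 3 reads in 1 library, with the 10 genes described in red, other germline genes in grey and dotted lines at 0.5 and -0.5. The interval of Sycp3, 1.12 to 1.29, lies above 0 together with that of Ybx2, and the interval of Spo11 runs past the left edge since 1 library was at 0.

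Since female gWAT lies against the ovary, oviduct and uterus, markers of these tissues were read beside the germline genes. Of 13 oocyte markers 8 had a row, and their FPKM summed to 2.07 in fl/fl and 1.31 in AD1KO. Zp2 and Zp3, of the egg coat, had no row, and Zp1 had at most 1 read in a library. Gdf9, an oocyte growth factor, was at 0.47 and 0.54 FPKM, and Oosp1, an oocyte secreted protein, at 1.42 and 0.45 FPKM. Of 11 ovarian somatic markers 9 had a row, with sums of 4.50 and 4.72 FPKM. Star, which carries cholesterol into mitochondria for steroid synthesis, was at 1.42 and 2.41 FPKM, with a log2 ratio of 0.76 (95% counting interval 0.39 to 1.14). Cyp11a1, which starts that synthesis, moved the other way, at 1.63 and 0.73 FPKM, with a log2 ratio of -1.15 (95% counting interval -1.93 to -0.46). Inha, an inhibin subunit, was at 0.92 and 0.97 FPKM. Lhcgr and Hsd3b1 were listed at 0 in fl/fl and had about 1 read each in AD1KO. Foxl2 had about 4 reads in fl/fl and was listed at 0 in AD1KO. None of them reached the minimum. All 9 markers of oviduct and uterine epithelium had a row, with sums of 16.63 and 8.34 FPKM. Within this list, 5 of 7 tested genes were past -0.5 and none past 0.5, beside 19.1% and 14.3% of all tested genes. The whole counting interval was below 0 for 4 of the 7 and above 0 for none, beside 28.9% and 21.5%. Ovgp1, the oviduct glycoprotein, was at 3.51 FPKM in fl/fl and 0.17 FPKM in AD1KO, and Ltf, the estrogen-responsive lactoferrin, at 5.09 and 0.20 FPKM. Pax8, a transcription factor of the oviduct, had about 11 reads in fl/fl and was listed at 0 in AD1KO. Foxj1 and Wnt7a, also listed at 0 in AD1KO, had about 3 and 4 reads in fl/fl and did not reach the minimum. Krt8, an epithelial keratin, was at 5.32 and 6.42 FPKM, and its interval held 0, as did those of Msx1 and Epcam. Ovgp1, Ltf and Pax8 were lower in AD1KO, as were Dpep3, Dppa3, Psmc3ip and Spo11, and the part of oviduct and uterine RNA in those values was not tested. Of 12 motile cilia markers 11 had a row, with sums of 5.73 and 7.74 FPKM. Within the cilia list, 3 of 6 tested genes were past 0.5 and none past -0.5, beside 14.3% and 19.1% of all tested genes. Ccno, 1 of the 3, passed the minimum only through AD1KO, where it is higher. Tekt1, at 3.45 and 5.16 FPKM, was the only 1 of the 6 with its whole counting interval above 0. The T and NK cell and proliferation markers were lower in AD1KO for 10 of 10 tested genes each, with Pcna, the replication clamp, at 148.62 and 79.13 FPKM. Their part in the values of Psmc3ip, Syce2 and Dppa3 was not tested either.

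The factors that repress germline genes were detected in both libraries. All 12 repressor genes tested had FPKM above 1. None was past 0.5 and 2 were past -0.5, beside 14.3% and 19.1% of all tested genes. The whole counting interval was above 0 for 2 and below 0 for 7, beside 21.5% and 28.9% of all tested genes. Max, the E-box factor of the Polycomb complex, was at 44.71 and 29.49 FPKM, with a log2 ratio of -0.60. Setdb1, a histone methyltransferase, was at 11.34 and 7.97 FPKM, with a log2 ratio of -0.51. Pcgf6, the subunit that defines this complex, was at 2.35 and 1.88 FPKM and its interval held 0. E2f6 itself was at 10.69 and 12.33 FPKM. Among the 10 genes of DNA methylation, 6 of 9 tested were past -0.5 and none past 0.5. Besides Dnmt1 these included Uhrf1, which brings DNMT1 to replicating DNA, with a log2 ratio of -1.01, and Hells, a chromatin remodeler, with -1.17. Dnmt3a, a de novo methyltransferase, was at 9.02 and 4.88 FPKM, with a log2 ratio of -0.88, and Tet2 and Tet3, which oxidize methylcytosine, had -0.85 and -0.50. Dnmt3b, at 0.35 and 0.36 FPKM, and Dnmt3l, at 3.09 and 3.77 FPKM, had intervals that held 0. Mbd2, which binds methylated CpG, had -0.15, and Tet1 did not reach the minimum. Uhrf1 and Hells are also genes of dividing cells, and the proliferation markers were lower in the same library. The part of dividing cells in the values of Uhrf1 and Hells was not tested.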

How the data were processed

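The authors pooled equal RNA of 4 female mice per group, sequenced poly(A) RNA as 1 library per group and describe alignment to mouse mm9. Over all its samples, the records of the series name mm10 beside mm9 as genome builds. The aligner, counting program and strand setting are not given in the sources used here. The authors deposited both libraries in one table as FPKM, with 0 written as 0.01, beside the transcript length and their own fold changes, P-values and FDR, which were not used. The samples for RRBS, a methylation assay, were not analysed here.

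Values of 0.01 were set to 0, and log2 ratios of AD1KO over fl/fl were taken after adding 0.01 FPKM, which understates changes of low genes. A minimum of 0.1 FPKM in either library was set, and genes above it were compared with a log2 ratio of 0.5, the size used in the study. There was no replicate, so no p-value was computed. Reads were estimated from FPKM and length alone, by seeking the depth and the length correction at which low values of short genes are whole reads. The search range was narrowed after a first look over a wider one and with an earlier estimate of the depth known. The correction was 114 bases. Of 208 low values in fl/fl and 223 in AD1KO, 74.5% and 74.9% lay within 0.15 of a whole read, where 30% would by chance, and these are the values the search was tuned on. The estimated reads sum to 17712782 and 17445458. Because the reads are estimates, the exact 95% Clopper-Pearson intervals are approximate, and they cover counting error only. A gene at 0 is compatible with up to 3 reads.

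The 10 genes and all lists were chosen with earlier results of these data known. Named genes were the 10, the DNA methylation genes, and from each other list the 3 with the largest absolute log2 ratio and, for marker lists, the 3 with the highest FPKM, of which examples are given. E2f6, Syce2, Tdrkh, the genes beside Sycp3 and the markers at 0 were added after their values were seen. Genes were matched by symbol or gene ID, and 1 gene first placed on the DNA methylation list was taken off it and is not reported here. Promoters are RefSeq windows of GRCm38.p6, the first listed per gene, and gene models are GENCODE on NCBIM37 (mm9), with similar transcripts sought by BLAST 2.17.0. The steps were tested on simulated data. Python 3.11.15, NumPy 2.4.6, pandas 2.3.3, SciPy 1.17.1 and Matplotlib 3.10.9 were used.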

Additional observations from a re-analysis of the deposited data

How the results depend on the processing

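The log2 ratios of Dnmt1, Sycp3, Ddx4, Dpep3 and Brdt were recomputed with other pseudocounts and scalings, and none of them changed sign. The median of the 4 tested genes of the 10, at 0.41, did: it was -0.02 with a pseudocount of 1 FPKM and -0.15 under adipocyte marker scaling. The latter scaling shifts every gene alike and put the median of all tested genes at -0.60. Scaling subtracted a constant from all ratios: -0.04 (trimmed mean of M-values), -0.09 (upper quartile) or -0.04 (median of ratios), which raised them slightly. The adipocyte marker scaling, chosen after seeing the data, subtracted 0.56 and so lowered them. It turns positive ratios below 0.56, such as the 0.42 of Chpt1, negative. Under upper quartile scaling Sycp3 was at 1.30. Under adipocyte marker scaling Sycp3 was at 0.65, Dnmt1 at -1.63 and Brdt at -0.94. With this scaling 2 of the 10 genes were higher and 2 lower, and 3 other germline genes were higher and 16 lower. The median of all tested genes, at -0.60, was then itself past the cut for a lower gene. These lower counts therefore do not set germline genes apart from all genes. Shares over all genes are not given for this or the following settings, so their counts have no background. A pseudocount of 1 FPKM left 1 of the 10 genes higher and 0 lower, and 1 other germline gene higher and 3 lower. Without a minimum, 4 of the 10 genes were higher and 2 lower, and 16 other germline genes were higher and 15 lower. Of the 10 genes, those added in this way were Sycp1, Asz1 and Dazl, with at most 3 reads in either library, for which no fold is given above. With a minimum of 1 FPKM only Sycp3 remained of the 10, so that 1 was higher and 0 lower with a median of 1.21, and 1 other germline gene was higher and 3 lower. At a threshold of 1, 4 other germline genes were higher and 6 lower. Without Sycp3 the summed FPKM were 1.81 in fl/fl and 1.29 in AD1KO. No paired analysis was possible because each group has 1 library. Leaving out a library was not possible for the same reason. Depth limits 5 of the 9 genes with a row, which had fewer than 10 reads over both libraries.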

Other observations

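Gene Ontology terms in the deposited table, chosen after the data were seen, gave a wider view of germline annotation. Of 231 tested genes annotated to spermatogenesis, 37 (16.0%) had a log2 ratio of at least 0.5 and 49 (21.2%) of -0.5 or less, beside 14.3% and 19.1% of all tested genes. For the meiotic cell cycle these were 14 (26.4%) and 11 (20.8%) of 53 genes, and for the synaptonemal complex 5 (29.4%) and 6 (35.3%) of 17. For the piRNA metabolic process they were 3 (42.9%) and 1 (14.3%) of 7 genes, and for DNA methylation in gamete generation 2 (20.0%) and 2 (20.0%) of 10. Of 18 tested genes annotated to oogenesis, 1 was higher and 6 were lower. Genes of the 10 described above are among those annotated to each of these terms except oogenesis. The terms overlap, many of their genes also serve in somatic cells, and no test was made of the shares.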
